A study of Mus musculus with 22 samples.

Results

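The genes described here encode enzymes and subunits that modify or remodel chromatin. Members were the protein-coding genes of the deposited expression table whose symbols begin with Kdm1 to Kdm8, Kmt2 or Kmt5, Setd1 to Setd8, Chd, Arid1 to Arid5, Smarca to Smarce, Brd, Hdac, Kat2 to Kat8, Tet or Dnmt, with the sex-linked demethylase genes Kdm5d and Kdm6a set aside. This rule used symbols and no measured value, and it found 95 of the 17440 genes in the table. It kept the X-linked genes Kdm5c, Hdac6, Hdac8 and Smarca1. Classes also follow symbols, and not every product has the activity its class is named for, as with Kmt2e and Setd3 below. There were 16 lysine methyltransferase genes (Kmt and Setd), 16 lysine demethylase genes (Kdm), 7 acetyltransferase genes (Kat) and 11 deacetylase genes (Hdac). A further 7 were bromodomain genes (Brd), 10 CHD remodeller genes (Chd) and 16 genes of SWI/SNF and ISWI related subunits (Smarc, Arid1, Arid2). Another 6 were other ARID genes and 5 DNA methylation genes (Dnmt1, Dnmt3a, Tet1, Tet2 and Tet3). The remaining member, Brd3os, met the rule by its symbol, lies beside Brd3 on the other strand without overlapping it, and is no bromodomain gene.

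The study asked which transcripts sit on ribosomes of active cells when neurons making melanin-concentrating hormone (MCH) are driven chemogenetically. Arcuate nucleus with median eminence, at the base of the hypothalamus, was taken from 11 mice, and each mouse gave an immunoprecipitate (IP) library and an input library, 22 in all. In phosphoTRAP, an antibody against phosphorylated S6 (sites 244 and 247), a ribosomal protein, pulls down ribosomes with their messenger RNA, and S6 phosphorylation is known to go up in active neurons. The input was set aside from the same lysate before the antibody was added. The genotypes were MCH-hM3Dq (4 mice, numbered 1, 3, 4 and 5), which carry the activating designer receptor hM3Dq, and control (7 mice, numbered 1 to 7), while 5 hM3Dq mice are named in the series' design and the other was not analysed here. Mice of both genotypes had a C57BL/6N background, were 10 to 13 weeks old, were fasted for 12 h and received clozapine N-oxide (CNO), the ligand of hM3Dq, by intraperitoneal injection, with 1 h of treatment. Fasting and CNO were therefore common to all groups, and the labels give no mouse without CNO. How the receptor was delivered and what the control genotype carried are not given in the sources used here.

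Chromatin modifiers act on nucleosomes in a few ways. Methyltransferases and acetyltransferases write marks on histone tails, demethylases and deacetylases remove them, and bromodomain proteins bind acetylated lysines. SWI/SNF, ISWI and CHD remodellers use ATP to slide or evict nucleosomes, while Dnmt enzymes methylate DNA and Tet enzymes oxidize the methyl group. In neurons these proteins are known for their part in activity-dependent transcription, and loss of several of them causes neurodevelopmental disorders in people. The measurements here concern their messenger RNA, in tissue and on captured ribosomes, and not the proteins or marks. In such bulk tissue, fewer cells of a type and less RNA per cell cannot be told apart.

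Library facts bear on all members. Read totals are unknown because values were deposited as FPKM (fragment counts scaled by transcript length and by library total), and relative depth, read from the steps between low values, ran from 0.688 to 1.22. Genes listed at 0 numbered 280 to 1895 per library, with the highest numbers in the inputs of control mice 1 and 6 (1895 and 1579) and the IP of control mouse 5 (1515), and results were therefore also computed without these 3 mice. Mitochondrially encoded RNA made up 0.0204% to 0.640% of summed FPKM in IP and 1.68% to 5.56% in input. Of 9 pan-neuronal marker genes tested, 3 were higher in IP than in input of control mice and none was lower. In hM3Dq mice 4 were higher and none was lower. Their summed level was 6364 to 8975 FPKM in control IP against 4806 to 6245 in control input. In hM3Dq mice that sum was 6754 to 10964 FPKM in IP against 5277 to 7003 in input. Snap25 made up most of these sums, at 4733 to 7404 FPKM in control IP and 3632 to 5126 in control input. Stmn2 was lower in IP than in input of hM3Dq mice 1, 3 and 5 and higher in mouse 4. Of 4 erythroid markers, 3 were higher in IP of control mice (median log2 fold change 1.24) and 1 in hM3Dq mice (0.76). Over the pan-neuronal markers these medians were 0.47 and 0.50. Of 8 oligodendrocyte markers, 4 were lower in IP in each genotype. Across mice their summed level ran over 552 to 1213 FPKM in IP against 855 to 1684 in input of control mice. In hM3Dq mice it ran over 394 to 1266 against 697 to 1761 FPKM. These ranges overlap but leave out the pairing. Within mice Mbp, the most abundant of these markers, was lower in IP than in input of every mouse, while Cnp was higher in IP in most mice. The listed markers Kiss1, Tubb3, Aldh1l1, Tmem212, Cga, Gh and Prl are not among the 17440 genes. No marker that is among them was at 0 in every library, and the part of cell type makeup in the members' values was not tested. Arcuate neuron markers summed to 167 to 552 FPKM in control IP and 90.3 to 262 in hM3Dq IP. In input these sums were 136 to 341 and 69.6 to 205 FPKM. Their median log2 difference, hM3Dq against control, was -0.72 in IP and -0.54 in input, and 0 of 8 passed. Over the pan-neuronal markers these medians were 0.22 and 0.11, also with 0 passing. Tanycyte markers of the median eminence summed to 8.10 to 28.2 FPKM. Each sum was above 0 in every library, although the tanycyte marker Rax was at 0 in control input 1 and hM3Dq IP 5. Pmch and Hcrt, markers of lateral hypothalamic neurons, summed to 48.4 to 747 FPKM. Their median log2 difference, hM3Dq against control, was -0.62 in IP and -1.03 in input, and 0 of 2 passed. The libraries therefore also held markers from outside the labelled tissue.

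Members spanned a wide range of levels. Smarca2, the BRM ATPase of SWI/SNF complexes, was the most abundant member at 301 ± 40.7 FPKM in input and 392 ± 70.2 in IP of control mice (SD, n = 7). In hM3Dq mice it read 331 ± 68.4 FPKM in input and 362 ± 38.1 in IP (SD, n = 4). Brd2, a BET protein that binds acetylated histone H4, came next with a mean of 162 FPKM over all 22 libraries, followed by Kmt2e (91.4) and Kmt5a (80.2). These means pool IP and input, and the order of Kmt2e and Kmt5a turned between them in hM3Dq mice. There Kmt5a was the higher in input (87.1 to 122 FPKM against 47.2 to 78.6) and Kmt2e in IP (102 to 149 FPKM against 35.3 to 46.0), without overlap, while in control mice the ranges of both genes overlapped in input and in IP. Means over all libraries reached 100 FPKM in 2 members, 10 FPKM in 64 and 1 FPKM in 93. The lowest was Hdac10, a deacetylase known to act on polyamines, at 0.347 FPKM on average and listed at 0 in the inputs of control mice 1 and 4.

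By the mean over all libraries, the most abundant member of each remaining class was Kdm2a among demethylases (68.0 FPKM), Hdac11 among deacetylases (71.6), Chd5 among CHD remodellers (55.9), Kat5 among acetyltransferases (39.4), Arid4b among other ARID genes (28.9) and Dnmt3a among DNA methylation genes (17.8). Chd5 is a neuronal remodeller of NuRD complexes, Kat5 is the catalytic subunit of the Tip60 complex, and Dnmt3a is a de novo DNA methyltransferase. Kdm2a and Arid4b had the highest mean of their class in each of the 4 groups, and the others did not. Mean Hdac2 exceeded Hdac11 in control IP (73.3 against 69.3 FPKM) and hM3Dq IP (82.8 against 57.9), Chd3 exceeded Chd5 in control input (50.7 against 34.0), Kat7 exceeded Kat5 in hM3Dq IP (37.6 against 34.1), and Tet2 exceeded Dnmt3a in control input (20.5 against 19.3). Members together held 0.514% to 0.764% of the summed FPKM of an IP library and 0.493% to 0.632% of an input library, and these ranges overlap. Within mice this share was higher in IP than in input, except in control mouse 1 (0.514% against 0.531%). Summed FPKM itself was lower in IP than in input of every mouse, and its part in the share was not tested.

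**Figure D1:**
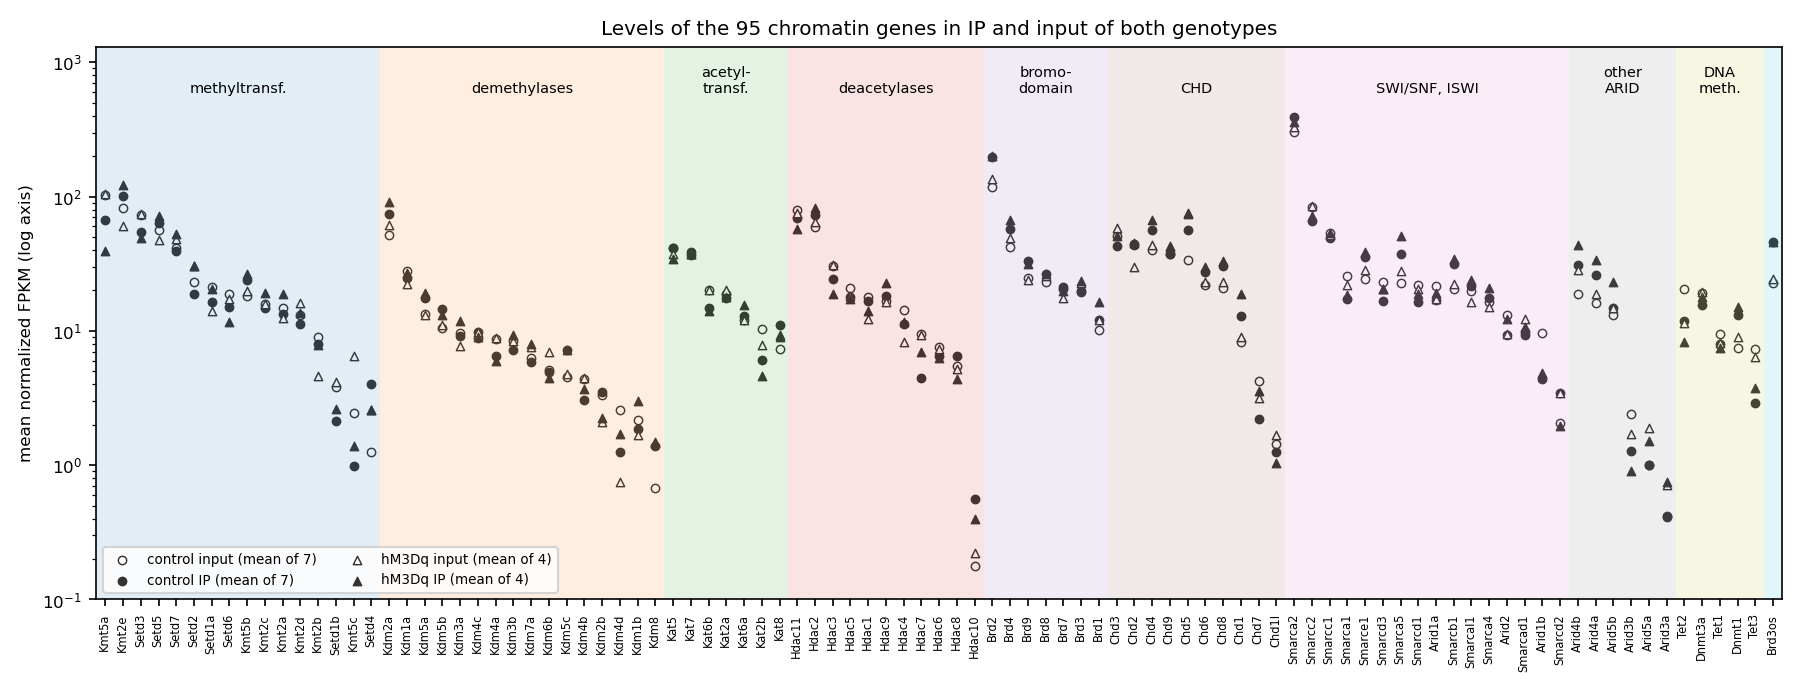
Mean normalized FPKM (log axis) of each of the 95 members in control input, control IP, hM3Dq input and hM3Dq IP, grouped by class and ordered by control input. Smarca2 stands highest at 301 to 392 FPKM and Hdac10 lowest.

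IP was compared with input within each genotype to see which members the phospho-S6 pulldown retained or lost. In control mice 3 of 93 tested members passed as higher in IP (Brd3os, Brd2 and Smarca5) and 0 as lower, by limma's paired test on log2(FPKM + 1) with Benjamini-Hochberg adjustment over all genes tested and a threshold of 0.05. Over all 13999 genes tested in this comparison, 2.23% passed as higher and 2.61% as lower (4.84% either way), so the 3.23% of members that passed as higher is near the background. Arid3a and Hdac10 were filtered out, since fewer than 4 of the libraries compared reached 1 FPKM. The median log2 fold change was -0.01 over the 93 members and 0.03 over all genes, 48.4% of members had a positive value against 52.7% of all genes, and 28 of 93 members had an unadjusted limma p under 0.05, against 2736 of all 13999 genes.

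Brd2 was measured at 85.8, 121 and 147 FPKM (lowest, median and highest) in control input and at 130, 197 and 252 FPKM in control IP. Each of the 7 control mice had more Brd2 in IP than in its own input, although the highest inputs overlapped the lowest IP. The log2 fold change was 0.72 (SE 0.167, adjusted p = 0.0298 by limma). Brd2 lies at chr17:34112023-34122634 on the minus strand (GRCm38) and overlaps H2-DMa and CR974462.3 on the opposite strand; whether counting used strand is not given in the sources used here. All 7 bromodomain genes had positive log2 fold changes in both genotypes, 0.02 to 0.72 in control mice and 0.05 to 0.68 in hM3Dq mice, and 1 of these 14 values passed, Brd2 in control mice.

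Smarca5 encodes SNF2H, the ATPase of ISWI complexes that spaces nucleosomes. It ranged over 17.6, 23.4 and 26.2 FPKM in control input and 25.6, 36.9 and 48.7 FPKM in control IP, with IP above input in 7 of 7 mice. In hM3Dq mice 1, 3, 4 and 5 it read 31.3, 20.9, 24.4 and 34.9 FPKM in input and 65.4, 33.2, 61.7 and 43.2 FPKM in IP. Every mouse of both genotypes had more in IP, and the groups overlapped only at the edges. It rose by 0.68 on the log2 scale in control mice (SE 0.167, adjusted p = 0.0365, limma) and by 0.82 in hM3Dq mice (SE 0.180, adjusted p = 0.0202, limma). The gene has 6 near-identical copies in the annotation, among them Smarca5-ps, which match 47.0% to 52.0% of its longest transcript at 96.8% to 98.1% identity, and Gm45872 overlaps it on the same strand, so its reads could have been split between them.

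Brd3os, annotated with a short reading frame of 252 nt at chr2:27442324-27444221, had 17.1, 20.9 and 37.3 FPKM in control input and 34.5, 41.9 and 63.8 FPKM in control IP. Control mouse 1 held both the highest input and the lowest IP and was the only one of 7 with less in IP. In hM3Dq mice input was 36.2, 19.7, 24.2 and 17.1 FPKM and IP was 62.3, 51.3, 41.1 and 29.8 FPKM. It rose by 0.99 in control mice (SE 0.212, adjusted p = 0.0198, limma) and by 0.90 in hM3Dq mice (SE 0.157, adjusted p = 0.00800, limma).

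The control counts turned on single mice. Without control mouse 1 the members higher in IP numbered 9 (the same 3 with Arid4b, Chd4, Chd5, Chd8, Dnmt1 and Kdm2a). Without mouse 2, 3 or 4 there were 0, without mouse 6 only Brd2 passed, and without mouse 7 only Brd3os. Without control mice 1, 5 and 6 together, Brd2, Brd3os and Chd4 passed as higher and Kmt5a as lower. With eBayes run without its intensity trend 0 passed, and 1 fit of all libraries gave 10 higher and 1 lower. The share of all genes that passed in each of these settings is not given here. Whether the shifts were particular to the members was not tested.

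In hM3Dq mice 9 of 93 tested members passed as higher in IP and 2 as lower. The higher ones were Kmt2e, Brd3os, Smarca5, Arid4a, Smarcb1, Arid5b, Chd4, Arid4b and Kdm2a, and the lower ones were Kmt5a and Setd3. Among all 12987 genes tested, 5.41% passed as higher and 4.9% as lower (10.3% either way), against 9.68% of members higher. The median over members was 0.08 and over all genes 0.03, 58.1% of members had a positive log2 fold change against 53.1% of all genes, and 31 of 93 members had an unadjusted limma p under 0.05, against 3389 of all 12987 genes.

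The pairing and single mice weighed on that count as well. With IP and input unpaired, 1 member passed as higher (Kmt2e) and the same 2 as lower. Without hM3Dq mouse 1 the higher members were Kmt2e and Brd3os, without mouse 3 they were Kmt2e, Brd3os, Arid4a and Arid4b, without mouse 4 they were Kmt2e, Brd3os, Chd4 and Brd2, and without mouse 5 they were Kmt2e, Brd3os and Smarca5. Kmt5a passed as lower in each of these, and Setd3 only without mouse 5. For these settings too, the share of all genes that passed is not given here. Kmt5a and Kmt2e were the only members that passed under all 13 alternatives run for this comparison.

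Kmt5a encodes the enzyme that adds a single methyl group to a lysine of histone H4 and is known for its part in chromosome compaction and the cell cycle. In hM3Dq mice 1, 3, 4 and 5 it read 96.5, 122, 113 and 87.1 FPKM in input and 39.8, 35.3, 36.7 and 46.0 FPKM in IP. All 4 IP values lay below all 4 inputs. Kmt5a fell by 1.38 on the log2 scale (SE 0.161, adjusted p = 0.00117, limma), and its adjusted p stayed between 0.000444 and 0.0230 over the alternatives. In control mice input spread over 38.9, 106 and 166 FPKM and IP over 47.9, 69.2 and 102 FPKM, with IP lower in 6 of 7 mice and a log2 fold change of -0.50 (SE 0.171) that did not pass (adjusted p = 0.127, limma). The gene lies at chr5:124439930-124462308 on the plus strand, and no overlapping gene or near-identical copy was found for it.

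Kmt2e is a Trithorax-related SET domain protein without known methyltransferase activity of its own, whose loss causes a neurodevelopmental disorder in people. Its hM3Dq input was 55.3, 78.6, 47.2 and 60.3 FPKM and its hM3Dq IP 127, 149, 102 and 111 FPKM in mice 1, 3, 4 and 5. Again the groups did not overlap. Kmt2e rose by 1.01 (SE 0.125, adjusted p = 0.00151, limma), and the adjusted p ran from 0.00103 to 0.0278 over the alternatives. In control mice it ranged over 53.7, 72.7 and 123 FPKM in input and 54.7, 88.8 and 171 FPKM in IP, with IP higher in 4 of 7 mice (log2 fold change 0.24, SE 0.170, adjusted p = 0.478, limma). Its transcript overlaps that of Srpk2 on the opposite strand over 972 nt.

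Setd3, known as the histidine methyltransferase of actin, was the other lower member. It read 66.9, 78.8, 71.3 and 78.2 FPKM in hM3Dq input and 43.1, 51.7, 45.5 and 56.1 FPKM in hM3Dq IP, without overlap, and fell by 0.58 (SE 0.124, adjusted p = 0.0179, limma). In control mice its log2 fold change was -0.40 (adjusted p = 0.203, limma). Gm14026 and Gm7114 match up to 31.0% of its transcript, so its level is uncertain to that extent. The other methyltransferase genes did not pass in hM3Dq mice, and their extremes, -1.05 for Kmt5c and 0.73 for Kmt2b, leaned on single mice. IP minus input of Kmt5c was -3.71 in mouse 4 and -1.05 to 0.95 in the others, and that of Kmt2b was 2.05 in mouse 1 and 0.11 to 0.47 in the others. The class as a whole had 1 gene higher, 2 lower and 13 that did not pass.

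**Figure D2:**
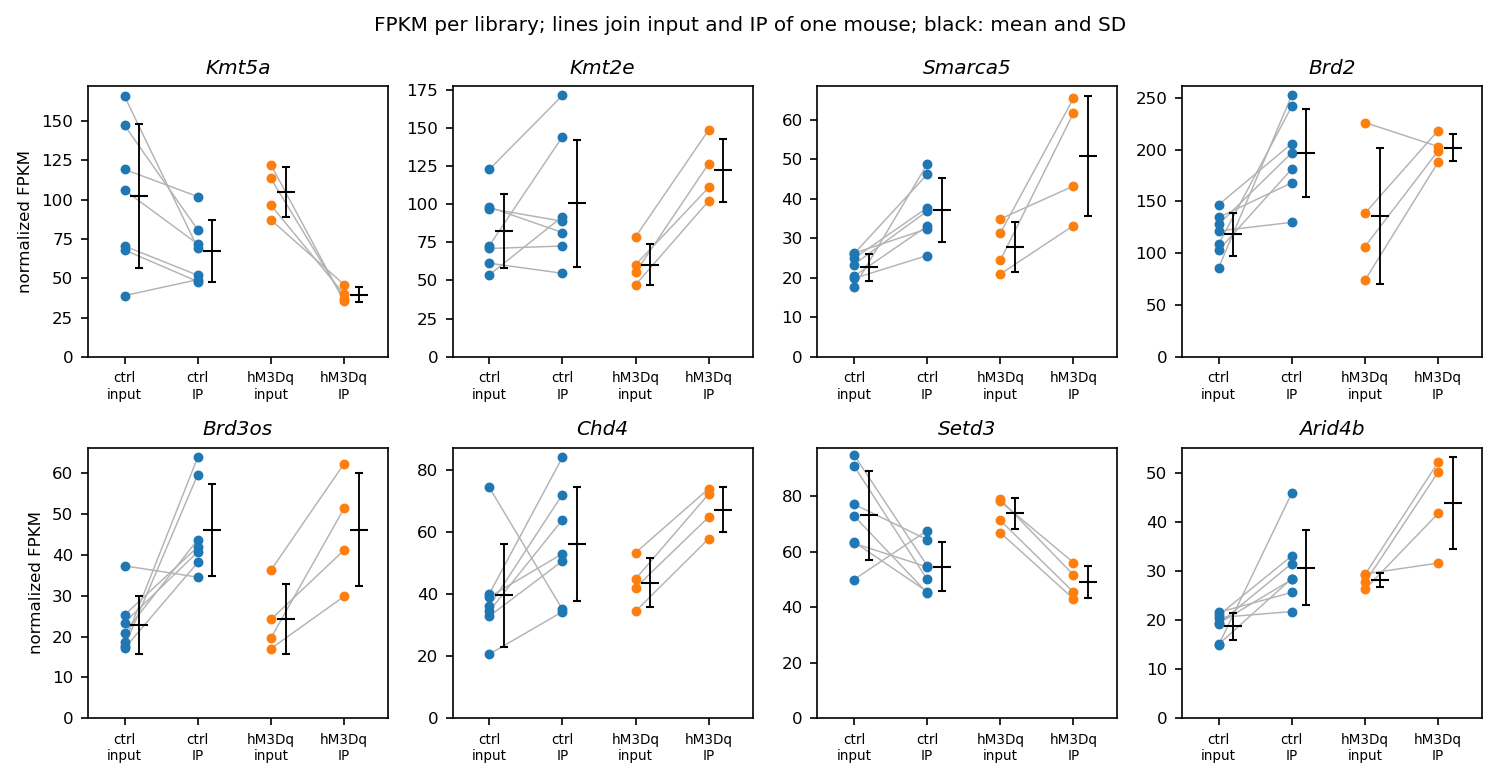
Normalized FPKM of 8 members in each library, with lines joining the input and IP of a mouse and black marks for mean and SD (n = 7 control, n = 4 hM3Dq). Kmt5a and Setd3 are lower and Kmt2e higher in every hM3Dq IP than in every hM3Dq input, and control mouse 1 gives the highest control input of Chd4 and Brd3os.

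The RefSeq sequences around the start sites of Smarca5 and Kmt5a are shown because these genes rose and fell in the pulldown of hM3Dq mice. Each window holds 250 bases before the start and 50 after it, read in the direction of transcription from GRCm38.p6, with CG dinucleotides in capitals. Smarca5 is at chr8:80739410-80739709 (minus strand) and Kmt5a at chr5:124439680-124439979 (plus strand), the most upstream of the 3 windows listed for Kmt5a.
Smarca5: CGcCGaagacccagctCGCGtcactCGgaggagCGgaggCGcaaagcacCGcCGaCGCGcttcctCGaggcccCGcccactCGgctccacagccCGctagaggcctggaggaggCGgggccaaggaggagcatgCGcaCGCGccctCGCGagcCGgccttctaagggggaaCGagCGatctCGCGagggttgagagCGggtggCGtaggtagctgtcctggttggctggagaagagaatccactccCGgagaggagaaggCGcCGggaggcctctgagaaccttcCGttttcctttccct
Kmt5a: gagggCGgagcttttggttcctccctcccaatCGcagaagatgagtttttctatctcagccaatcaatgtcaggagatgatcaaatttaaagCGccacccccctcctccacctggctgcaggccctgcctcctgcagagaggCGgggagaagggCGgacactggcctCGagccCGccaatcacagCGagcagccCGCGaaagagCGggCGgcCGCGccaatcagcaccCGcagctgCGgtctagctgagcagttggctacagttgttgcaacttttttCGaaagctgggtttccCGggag
The Smarca5 window had 32 CG dinucleotides and the Kmt5a window 18. RefSeq windows were found for 73 of the 95 members (104 windows), with a median of 24.5 CG dinucleotides against 13 over 21262 windows of protein-coding genes and 7 over all 32851 windows. Of 4 motifs searched on both strands, the cAMP response element TGACGTCA was in 0 of the 104 windows and in 2.23% of those of protein-coding genes. Its first letters alone, TGACG, which every full element also holds, were in 28.8% of members' windows against 23.6%. The AP-1 motif TGANTCA was in 9.62% against 6.99%, and the consensus NRF1 motif in 2.88% against 1.33%. Such counts describe these 300 nt windows only.

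Among remodellers, Chd4, the ATPase of NuRD complexes, was measured at 42.2, 34.5, 53.4 and 45.0 FPKM in hM3Dq input and 65.0, 58.0, 74.1 and 72.4 FPKM in hM3Dq IP. The groups did not overlap, and Chd4 rose by 0.62 (SE 0.128, adjusted p = 0.0159, limma). In control mice 6 of 7 had more in IP, while mouse 1 read 74.5 FPKM in input and 35.2 FPKM in IP, and the value of 0.51 did not pass (adjusted p = 0.236, limma). Chd4 was 1 of 10 CHD genes to pass in hM3Dq mice. Chd1 had a larger value there (0.96), with a standard error that left it short of the threshold, and Chd5 had 0.77 in control mice against 0.02 in hM3Dq mice, neither past the test.

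Smarcb1, a core subunit of SWI/SNF complexes and a tumour suppressor, read 14.2, 14.7, 30.5 and 30.0 FPKM in hM3Dq input and 30.2, 31.5, 39.3 and 36.4 FPKM in hM3Dq IP. Each mouse had more in IP, but the highest input was just above the lowest IP value, and the rise of 0.68 was near the threshold (SE 0.183, adjusted p = 0.0451, limma). In hM3Dq mice 2 of 16 genes of SWI/SNF and ISWI related subunits passed as higher and 14 did not pass. Smarca2 had log2 fold changes of 0.37 in control mice, where IP exceeded input in 7 of 7 mice, and 0.14 in hM3Dq mice, and neither passed (adjusted p = 0.0704 and 0.533, limma).

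Of the other ARID genes, 3 of 5 tested passed as higher in hM3Dq mice, where 5.41% of all genes did. These calls were fragile: of 13 alternatives, Arid4a passed in 6, Arid5b in 4 and Arid4b in 3. With the length trend removed, Arid4b and Arid5b did not pass. Arid4a, a retinoblastoma-binding subunit of Sin3 corepressor complexes, rose by 0.81 (SE 0.182, adjusted p = 0.0227, limma) from 25.3, 19.8, 12.9 and 17.8 FPKM in input to 41.3, 25.2, 33.3 and 34.1 FPKM in IP. Its paralog Arid4b rose by 0.60 (SE 0.163, adjusted p = 0.0467, limma) from 27.7, 29.5, 29.3 and 26.3 FPKM to 50.2, 31.7, 52.2 and 41.8 FPKM. For Arid4b no IP value fell among the inputs, whereas for Arid4a the IP of mouse 3 fell just under the input of mouse 1. Arid5b, known as a partner of the demethylase Phf2, read 12.2, 17.3, 12.7 and 16.8 FPKM in input and 22.4, 26.3, 21.3 and 23.1 FPKM in IP, without overlap, and rose by 0.64 (SE 0.160, adjusted p = 0.0352, limma). In control mice the values were 0.65, 0.66 and 0.16 for Arid4a, Arid4b and Arid5b, and none passed (adjusted p = 0.111, 0.0712 and 0.732, limma).

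Kdm2a, a demethylase that binds unmethylated CpG islands, was the only one of 16 Kdm genes to pass. It read 50.7, 59.9, 71.4 and 63.4 FPKM in hM3Dq input and 104, 85.1, 99.9 and 78.7 FPKM in hM3Dq IP, with no overlap, and rose by 0.58 (SE 0.147, adjusted p = 0.0365, limma). In control mice it was higher in IP in 6 of 7 mice (0.47, adjusted p = 0.103, limma). Among the 16 Kdm genes, 12 had positive values in hM3Dq mice and 7 in control mice.

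**Figure D3:**
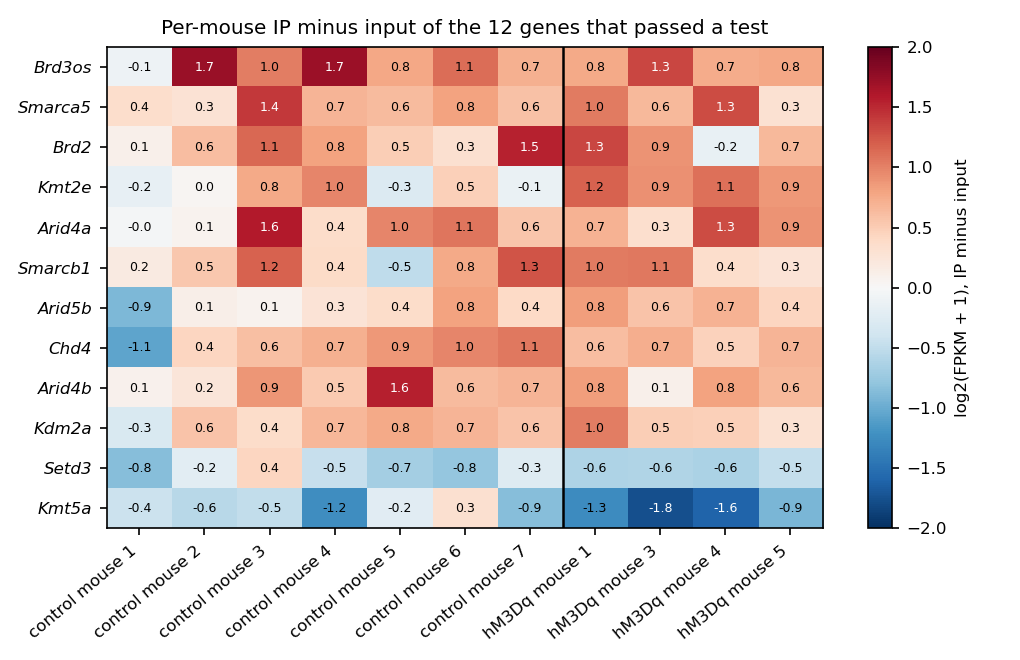
Difference of log2(FPKM + 1) between IP and input in each mouse for the 12 members that passed in either genotype (rows), with control mice left of the black line and hM3Dq mice right of it. Kmt5a and Setd3 are negative in all 4 hM3Dq mice, and Chd4, Arid5b and Kdm2a are negative in control mouse 1 alone among the 11 mice.

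Histone deacetylase genes showed no call in either genotype. Hdac2, a catalytic subunit of Sin3 and NuRD complexes, had 0.31 in control mice and 0.36 in hM3Dq mice, with IP higher in 6 of 7 and 4 of 4 mice (adjusted p = 0.243 and 0.194, limma). Hdac11 had -0.21 and -0.42 (adjusted p = 0.439 and 0.103, limma), and Hdac3, the catalytic subunit of NCoR complexes, had -0.38 and -0.55 (adjusted p = 0.376 and 0.221, limma). Hdac1 had -0.08 and 0.24, and it has near-identical copies over 71.1% of its transcript. The class IIa genes Hdac4, Hdac5, Hdac7 and Hdac9, whose products shuttle between nucleus and cytoplasm, had -0.20, -0.25, -0.64 and 0.13 in control mice and 0.43, -0.07, -0.17 and 0.47 in hM3Dq mice. Single mice moved several of these: Hdac7 in control mice was -1.08 without mouse 1 and -0.21 without mouse 6, Hdac4 in control mice was 0.0067 without mouse 4, and Hdac7 in hM3Dq mice was 0.22 without mouse 1. Hdac6, a tubulin deacetylase, had 0.05 and -0.21, and Hdac8 had 0.26 and -0.21. In control mice both changed sign among the alternatives, over -0.20 to 0.39 for Hdac6 and -0.15 to 0.54 for Hdac8. None of the 10 tested deacetylase genes had an adjusted p under 0.05 in limma, and 1 in control and 2 in hM3Dq mice had an unadjusted p under 0.05.

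DNA methylation genes did not pass either. Tet3 had the most negative value of any member in control mice, -1.06 (SE 0.346, adjusted p = 0.111, limma), with IP lower in 6 of 7 control mice and 4 of 4 hM3Dq mice (-0.63, adjusted p = 0.107, limma). Its levels were 7.34 ± 3.25 FPKM (SD, n = 7) in control input and 2.92 ± 1.13 (SD, n = 7) in control IP, against 6.39 ± 0.764 (SD, n = 4) and 3.78 ± 0.616 (SD, n = 4) in hM3Dq mice. Tet2 had -0.72 and -0.47, Tet1 -0.23 and -0.03, and Dnmt3a -0.40 and -0.13 in control and hM3Dq mice. Dnmt1, the maintenance methyltransferase, stood opposite to them with 0.73 and 0.66 (adjusted p = 0.116 and 0.101, limma) and was higher in IP in 6 of 7 and 4 of 4 mice. Acetyltransferase genes had no call, and Kat5 had -0.01 and -0.10.

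**Figure D4:**
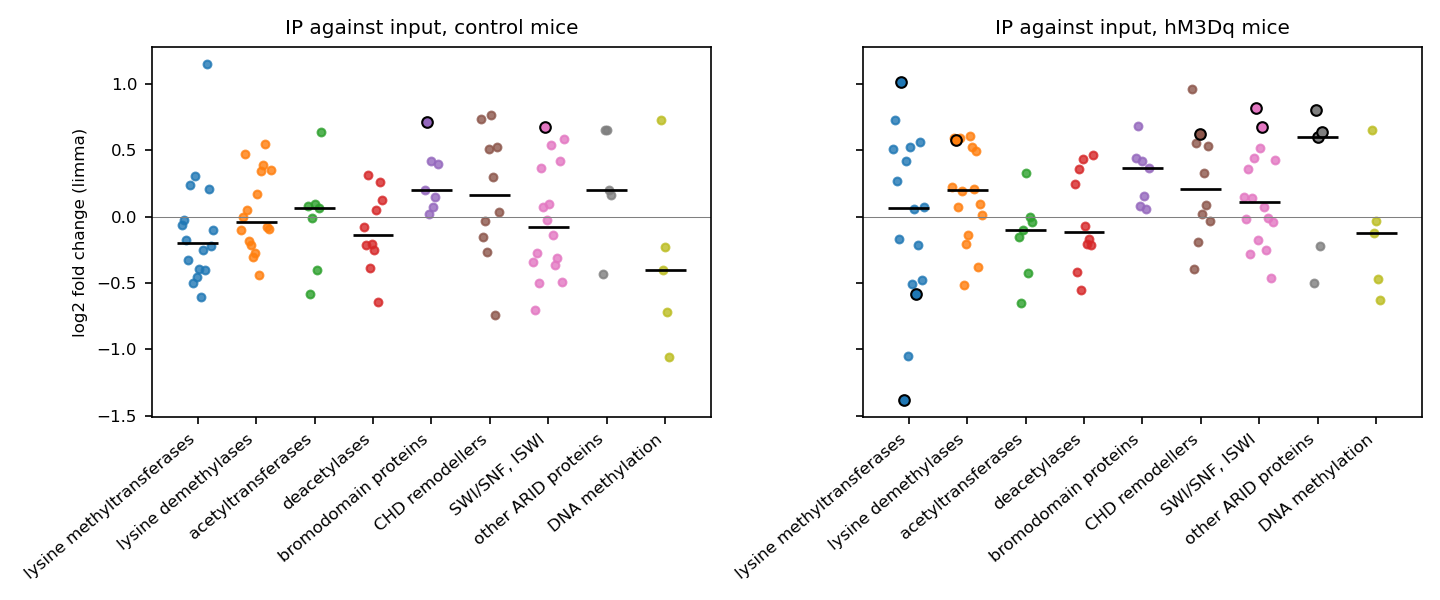
Log2 fold change of IP against input for each tested member by class, in control mice (left, n = 7 pairs) and hM3Dq mice (right, n = 4 pairs), with black lines for class medians and black rims for members that passed. Bromodomain genes all lie above 0 in both panels, and 4 of the 5 DNA methylation genes lie below 0 in both.

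The genotypes share no library in these comparisons, so their fold changes were set side by side. Across the 93 members tested in both, 64 had the same sign, and Pearson's r was 0.580 and Spearman's rho 0.590. Across all 12891 genes tested in both, 70.1% had the same sign, with r = 0.688 and rho = 0.565. These are correlations across genes, which share libraries and are not independent replicates. Brd3os and Smarca5 passed in both genotypes. Kmt5a was negative and Smarca5 positive in both.

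**Figure D5:**
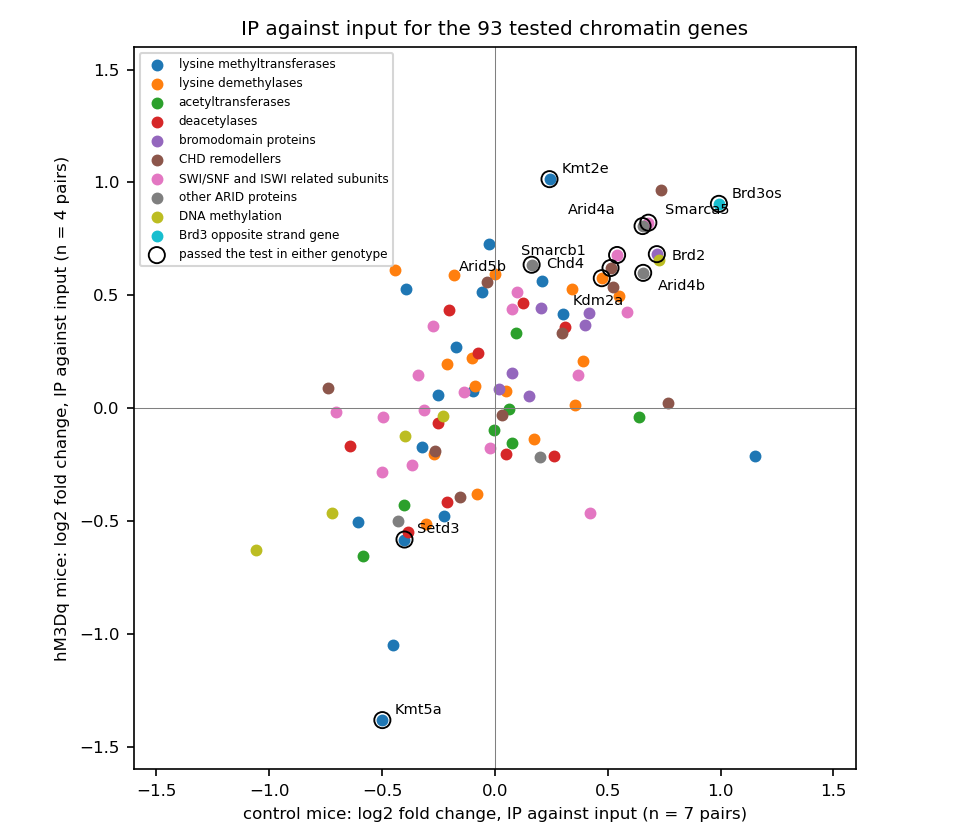
Log2 fold change of IP against input in control mice (horizontal, n = 7 pairs) and hM3Dq mice (vertical, n = 4 pairs) for the 93 tested members, coloured by class, with rings around the 12 that passed in either genotype. Brd3os and Smarca5 lie far to the upper right, Kmt2e lies at 0.24 in control mice and 1.01 in hM3Dq mice, and Kmt5a is lowest in hM3Dq mice at -1.38.

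Between genotypes, 0 members passed in IP, in input or in IP over input by limma, whereas 6 of 93, 3 of 93 and 3 of 94 had an unadjusted p under 0.05. Among all genes 707 of 13531, 613 of 13512 and 448 of 14582 had one, so these member counts are near the background. After adjustment 0.00739% of all genes passed in IP (1 gene), 0% in input and 0% in IP over input. In IP the smallest p-values belonged to Kmt5a, Arid5b and Setd2, the histone H3 methyltransferase that follows elongating polymerase. Kmt5a read 39.8, 35.3, 36.7 and 46.0 FPKM in hM3Dq IP against 47.9, 69.2 and 102 FPKM (lowest, median, highest) in control IP, so the groups did not overlap (log2 difference -0.72, SE 0.203, adjusted p = 0.810, limma). Arid5b read 22.4, 26.3, 21.3 and 23.1 FPKM in hM3Dq IP against 9.95, 14.1 and 20.0 FPKM, also without overlap (0.64, SE 0.187, adjusted p = 0.810, limma). Setd2 read 36.0, 26.3, 30.4 and 29.2 FPKM against 14.5, 16.6 and 31.6 FPKM, and the highest control value, of mouse 6, overlapped (0.69, SE 0.204, adjusted p = 0.810, limma).

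In input the smallest p-values belonged to Chd5 (1.09, SE 0.310, adjusted p = 0.968, limma), Arid4b (0.57, SE 0.171, adjusted p = 0.971, limma) and Chd2, a remodeller linked to epilepsy in people (-0.52, SE 0.190, adjusted p = 1.00, limma). Chd5 read 117, 57.4, 81.9 and 40.7 FPKM in hM3Dq input against 17.8, 31.7 and 49.5 FPKM in control input, with overlap. Arid4b read 27.7, 29.5, 29.3 and 26.3 FPKM against 14.9, 19.4 and 21.6 FPKM, without overlap. For Chd2 the groups overlapped.

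In IP over input, the difference that asks whether the pulldown itself differs between genotypes, the smallest p-values belonged to Kmt5a (-0.88, SE 0.267), Kmt2e (0.77, SE 0.248) and Setd4 (-1.37, SE 0.600). Each had an adjusted p of 0.999 by limma. Setd4 leaned on hM3Dq mouse 3, without which its difference was -0.77, and over the alternatives it ran from -2.81 to -0.77. The passes of Kmt5a and Kmt2e in hM3Dq mice and not in control mice were therefore not shown to differ between genotypes. Setd4 was low, at 1.26 ± 1.14 FPKM (SD, n = 7) in control input with control mouse 1 listed at 0. The authors' deposited table, which tests the same ratios without adjustment over genes, marks 492 of 17440 genes (2.82%) as significant, 5 of them members. In the authors' deposited table these are Kmt2e (p = 0.00356), Kmt5a (p = 0.0136), Smarcal1 (p = 0.0366), Hdac9 (p = 0.0426) and Arid5b (p = 0.0489).

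Although no member passed, more had positive than negative differences between genotypes in IP. There 65 of 93 were higher in hM3Dq mice, with a median of 0.17, while 49.0% of all genes were higher and the median over all genes was -0.01. Of 114 other chromatin genes tested, whose lists are described below, 84 were higher as well (median 0.11). This lean in IP was therefore not particular to the members. Genes share the same libraries and are not independent replicates. In input 55 of 93 members were higher (59.1%, median 0.05), against 47.2% of all genes (median -0.02). In IP over input 58 of 94 members were higher (61.7%, median 0.10), against 51.1% of all genes (median 0.01). With each mouse's trend on transcript length removed, the members' median in IP over input was -0.0066. Per mouse, the median of IP minus input over the 95 members ran from -0.21 to 0.33 in control mice (mean 0.07 ± 0.167, SD, n = 7) and from 0.02 to 0.36 in hM3Dq mice (0.14 ± 0.153, SD, n = 4), so the genotypes overlapped. The lowest value was that of control mouse 1 and the highest that of hM3Dq mouse 1.

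Members are long, with a median longest transcript of 5773 nt against 3261 nt over the genes tested in hM3Dq mice, and long transcripts had higher IP against input there. Spearman's rho of the log2 fold change with transcript length was 0.26 over members and 0.18 over all genes in hM3Dq mice, and -0.09 and 0.00 in control mice, as descriptions across genes. In hM3Dq mice the 44 members of 4000 to 8000 nt had a median of 0.28 with 7 higher, beside a median of 0.10 and 7.83% higher for all genes of that length. The 25 members of 8000 nt or more had a median of 0.14 with 1 higher, beside 0.19 and 12.0% for all genes. Both lower members, Kmt5a and Setd3, were among the 21 members of 2000 to 4000 nt. With each mouse's length trend removed, the median over members in hM3Dq mice moved from 0.08 to -0.04 and 5 members passed as higher, Kmt2e, Brd3os, Smarca5, Arid4a and Chd4. The share and the median of all genes in that fit are not given here, so these values have no background beside them.

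Other genes of chromatin regulation that the rule did not take were tested alongside, 119 genes in 6 lists chosen with earlier results of these data known. In control mice 0 of 114 tested passed as higher and 4 as lower, namely Ezh2, Ep400, Nsd2 and Mbd3, where 2.23% and 2.61% of all genes passed. Nsd2, a methyltransferase for histone H3, fell by 1.35 (SE 0.208, adjusted p = 0.00340, limma; 59.4 FPKM in input and 21.4 in IP), and Ep400, the ATPase of the Tip60 complex, fell by 1.53 (SE 0.288, adjusted p = 0.0105, limma). IP was lower in 7 of 7 mice for both. Ezh2, the Polycomb methyltransferase, fell by 1.58 (SE 0.313, adjusted p = 0.0133, limma) but did not pass without control mouse 2. Without control mice 1, 5 and 6, neither Ezh2 nor Ep400 passed.

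In hM3Dq mice 9 of the 114 (7.89%) passed as higher and 5 as lower, beside 5.41% and 4.9% of all genes, which is near the background. Atrx, a remodeller of the SNF2 family, rose by 1.06 (SE 0.228, adjusted p = 0.0188, limma), Brpf1, a scaffold of acetyltransferase complexes, by 0.95 (SE 0.234, adjusted p = 0.0333, limma), and Hcfc1, a cofactor of Kmt2 complexes, by 0.86 (SE 0.169, adjusted p = 0.0127, limma). Baz1b, Crebbp and Ncoa1 passed as higher too, and of 10 cohesin and Ctcf genes 3 passed as higher (Rad21, Smc3 and Ctcf). The lower genes with the largest changes were Pcgf6, a variant Polycomb subunit (-0.98, adjusted p = 0.0424, limma), Nsd2 (-0.87, adjusted p = 0.0372, limma) and Ep400 (-0.83, adjusted p = 0.0363, limma), and the remaining ones were Pcgf2 and Yaf2. Leaving out 1 hM3Dq mouse ended each of these 6 calls in at least 1 case, Pcgf6 and Brpf1 without any of the 4, Atrx without mouse 1, 4 or 5, Hcfc1 without mouse 1 or 3, and Nsd2 and Ep400 without mouse 3, 4 or 5. Nsd2 and Ep400 were the genes named here that passed as lower in both genotypes.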

How the data were processed

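RNA of 22 libraries (IP and input of 11 mice) was available as 1 table of 17440 genes in which the authors deposited normalized FPKM values. Per the submitters' processing notes, HISAT2 2.1.0, StringTie 1.3.4d and GRCm38.p6 were used, and how the FPKM were normalized is not given in the sources used here. The table also holds the authors' deposited ratio of IP over input per mouse (equal to the FPKM ratio within 0.1% in 178363 of 178363 filled cells), an unadjusted p-value per gene and a fold change score on a log2 scale, which the authors derived from these ratios and which were used only where stated. Positions, transcript lengths and overlaps came from GENCODE M21 (GRCm38), in which all 17440 genes matched, and promoter windows from RefSeq.

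Groups came from the labels, where IP and input of a mouse share an animal number. Values were analysed as log2(FPKM + 1), and fold changes are on that scale, which understates those of low genes. A gene entered a comparison if 4 or more of its libraries reached 1 FPKM, and testing used limma 3.58.1 (lmFit, then eBayes with intensity trend) in R 4.3.3, two-sided, on the whole table, with Benjamini-Hochberg adjusted p under 0.05 as the threshold. There were 5 comparisons. IP against input was paired by mouse, and those between genotypes were not paired, because equal numbers name different animals. Deviations of IP and input of the same mouse correlated at 0.14 to 0.33 in hM3Dq mice and -0.01 to 0.10 in control mice. The total depth is unknown, so no counting intervals are given, and relative depths were estimated, with the ratio measured directly in a pair of libraries lying within 0.1 on the log2 scale of the one these estimates give in 222 of 231 pairs. The fits were run on simulated data whose noise was independent between libraries, with no mouse effect, so this run could not test the pairing. Tables and plots used pandas 2.3.3 and matplotlib 3.10.9 under Python 3.11.15.

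Members, gene lists and marker lists were chosen with earlier results of these data known. Genes were named by rule: up to 10 passing members in each direction per IP against input comparison, the 3 with the smallest p between genotypes, the most abundant of each class, the Hdac, Dnmt and Tet families, the highest and lowest member, and the 3 other chromatin genes with the largest change in each direction. Other names, such as Chd1, Kmt2b, Kmt5c, Mbd3 and the cohesin genes, were chosen after their values were seen. Alternatives covered the pseudocount, filter, trend, normalization, pairing, length trend and single mice.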

Additional observations from a re-analysis of the deposited data

Results flagged for a closer look

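Groups of 4 to 7 values were formed for 41 named genes and for the members' medians per mouse. Among these 248 groups, 22 held a highest or lowest value set apart by a gap that is wide for the group's range. Chance flags about 1 in 20 such groups if values are normally distributed and groups independent, and here it was 8.87%. FPKM values need not be normally distributed, and values of 1 library are shared by several groups. The 8.87% therefore cannot be read as more than chance.

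Control mouse 1 recurred. Its input was highest for Arid5b (19.4 FPKM, others 11.0 to 13.3), Brd3os (37.3, others 17.1 to 25.3), Chd4 (74.5, others 20.7 to 40.1) and Ep400 (86.8, others 15.2 to 41.8), and its IP was highest for Hdac5 (43.0 FPKM, others 8.86 to 20.3). Its IP minus input on the log2 scale was -0.90 for Arid5b, -1.06 for Chd4 and -0.31 for Kdm2a, while the other 6 control mice were positive for these genes. This mouse's input had the lowest relative depth, 0.688, and the most genes at 0. Its part in these values was not tested.

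Further inputs of control mice stood apart for Atrx (mouse 6, 51.1 FPKM, others 20.6 to 28.1), Hdac7 (mouse 6, 28.5, others 0.898 to 10.4), Brpf1 (mouse 5, 7.41, others 1.66 to 3.80), Dnmt1 (mouse 4, 12.3, others 4.56 to 7.23), Hdac4 (mouse 4, 30.3, others 7.95 to 15.0), Hdac6 (mouse 3, 26.8, others 2.04 to 7.77) and Hdac8 (mouse 3, 12.8, others 3.14 to 5.98). Control IP values stood apart for Hdac6 (mouse 5, 17.0 FPKM, others 4.07 to 5.81), Hdac8 (mouse 5, 12.1, others 4.12 to 7.42) and Setd2 (mouse 6, 31.6, others 14.5 to 20.9). The IP minus input of Hdac6 in control mouse 3 was -2.03 on the log2 scale, against -0.26 to 1.03 in the others.

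In hM3Dq mouse 3, the input of Tet1 was 14.5 FPKM (others 5.62 to 6.47), and IP minus input on the log2 scale was 1.34 for Brd3os (others 0.74 to 0.77) and -2.02 for Setd4 (others 0.21 to 0.59).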

How the results depend on the processing

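Of 60 recomputed counts of members past the threshold in IP against input, 36 stayed within 1.5 times the reported count and 24 did not. The 122 counts between genotypes all stayed at 0, which says little about stability where almost no gene of the table passes, also with a replicate block over the numbers 1, 3, 4 and 5 that both genotypes hold. For IP against input in control mice, members higher numbered 0 without the intensity trend, 10 in 1 fit of all libraries and 0 to 9 leaving out 1 mouse, against 3 as reported, and members lower numbered 1 in 1 fit of all libraries, 1 without control mice 1, 5 and 6 and 1 with no replicate block (Tet3), against 0. In hM3Dq mice, members higher numbered 3 without a filter on low values, 2 without the trend, 3 in 1 fit of all libraries, 1 with no replicate block, 5 with the length trend removed and 2 to 4 leaving out 1 mouse, against 9, and members lower numbered 1 without the trend and 1 to 2 leaving out 1 mouse, against 2. Without the filter more genes are tested, and leaving out a mouse leaves fewer pairs. The cause of the remaining shifts was not tested, nor whether the shifts were particular to the members. Of 1198 recomputed values of named genes, 1065 kept direction and side of the threshold, 120 fell short of it, 13 came to pass it and 0 of those past the threshold reversed, while 12 results with no call changed sign in at least 1 alternative. Of 14 named calls of members, the 2 in every alternative were Kmt5a and Kmt2e in hM3Dq mice. The paired fit was the reported one because IP and input came from the same mouse. Numbers of hM3Dq and control mice do not pair, with deviations correlated at -0.12 to 0.05. Unknown read totals, 4 hM3Dq mice and an unstated normalization limit these results.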
